A study of Mus musculus with 30 samples.

Results

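Exonic peaks are stretches of open chromatin that the deposited peak table of this ATAC-seq study assigns to the exons of a gene, rather than to its promoter, its introns or the sequence between genes. They were taken as every peak whose class in that table is exon, which gave 3295 of 38526 peaks (8.55%), in 2753 genes. ATAC-seq marks DNA that a transposase can reach. The cells were mouse splenic natural killer (NK) cells, cultured for 5 days with a low dose of both IL-2 and the IL15:IL15Ra complex, and 30 libraries were analysed in 8 groups. The EP2/EP4 knockout (KO) cells carried GzmbCre, Ptger2-/- and Ptger4 fl/fl, so they lack the receptors EP2 and EP4 for prostaglandin E2 (PGE2), the second by a Cre that the granzyme B promoter drives. The wild-type (WT) cells were C57BL/6J, with no Cre named in the labels. Cells of both genotypes were stimulated or not through NK1.1 for 4 h and were given PGE2 at 100 ng/ml or left untreated for 5 h in all, the stimulated ones after 1 h of pretreatment. Each group held 4 libraries, except KO unstimulated untreated and WT unstimulated with PGE2, with 3 each. Cre was carried by the KO alone, so receptor loss and Cre cannot be told apart. The labels do not say whether libraries of a group came from separate animals or cultures, so p-values measure the spread between these libraries, which may be technical.

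Exons are the parts of a gene kept in its mature transcript. Some exonic sequence is also known to be bound by transcription factors and to act as an enhancer, and nucleosomes are known to sit preferentially on exons. NK cells kill with perforin and granzymes and release cytokines and chemokines when activating receptors such as NK1.1 are engaged, through NFAT, NF-κB and AP-1 factors. PGE2 acts on the Gs-coupled receptors EP2 and EP4, which raise cAMP and thereby activate protein kinase A and CREB, and it is known to dampen NK cell activation.

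Reads in peaks ran from 8444350 to 20153816 per library, and exonic peaks held 5.51% to 6.06% of them. A single read was worth 0.663 to 1.66 normalised reads, and only 2 of all exonic values were 0. The exonic peak of Ptger4 had at most 152 normalised reads in any KO library, against at least 434 in any WT library, so the gene targeted in the KO followed the labels. The promoters of the NK cell genes Ncr1, Klrb1c, Tbx21 and Eomes were open in all libraries, with medians of 451, 633, 328 and 560 normalised reads per kb. No peak was listed at the T cell genes Cd3g and Cd4, the B cell genes Ms4a1 and Cd79a, the myeloid gene Lyz2 or the erythroid genes Hbb-bt and Hbb-bs. Exonic peaks were listed at Cd3d, with a median of 845 per kb, and at Cd3e, with 185 per kb. Of 3 exonic peaks at B cell markers, 3 at T cell markers, 3 at erythroid markers and 4 at ILC2 and ILC3 markers, 0, 1, 1 and 1 changed with stimulation of untreated WT cells, where 56.3% of all peaks were called. With PGE2 in stimulated WT cells 1, 2, 1 and 1 changed, against 40.5% of all peaks, and with PGE2 in unstimulated WT cells 0, 1, 0 and 0, against 14.9% of all peaks. Their part in the results was not tested. Myeloid markers and housekeeping genes held no exonic peak.

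Sequence is shown for 4 exonic peaks that hold the start of their own gene, since the region before a start is where the given reference provides letters. They are Sult2b1, an enzyme that sulfates cholesterol, Pde2a, a phosphodiesterase that degrades cyclic nucleotides, Srgn, the proteoglycan of cytotoxic granules, and Slamf7, an NK cell receptor, and they were picked after their values were seen. Of the 3295 exonic peaks, 187 held such an upstream window of any gene whole and 126 that of their own gene. The lines give the 250 bases before the start from RefSeq on GRCm38.p6, 5′ to 3′ on the strand of the gene, at chr7:45742479-45742728 (minus strand), chr7:101450766-101451015 (plus), chr10:62507758-62508007 (minus) and chr1:171649000-171649249 (minus). Capitals mark matches, on both strands, to the AP-1 site TGANTCA, the cAMP response core TGACG (or CGTCA) and the RUNX site TGTGGT (or ACCACA). The ETS site GGAAGT (or ACTTCC) was searched as well and had no match in these windows.
Sult2b1: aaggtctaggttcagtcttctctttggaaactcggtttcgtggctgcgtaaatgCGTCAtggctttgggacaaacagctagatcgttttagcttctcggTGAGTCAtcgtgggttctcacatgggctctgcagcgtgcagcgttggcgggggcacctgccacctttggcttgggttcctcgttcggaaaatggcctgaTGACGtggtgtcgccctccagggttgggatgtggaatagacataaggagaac
Pde2a: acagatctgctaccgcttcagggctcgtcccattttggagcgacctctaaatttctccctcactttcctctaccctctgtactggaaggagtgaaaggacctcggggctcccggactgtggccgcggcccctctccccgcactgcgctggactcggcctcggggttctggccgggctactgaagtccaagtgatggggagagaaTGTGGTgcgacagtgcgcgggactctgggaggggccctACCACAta
Srgn: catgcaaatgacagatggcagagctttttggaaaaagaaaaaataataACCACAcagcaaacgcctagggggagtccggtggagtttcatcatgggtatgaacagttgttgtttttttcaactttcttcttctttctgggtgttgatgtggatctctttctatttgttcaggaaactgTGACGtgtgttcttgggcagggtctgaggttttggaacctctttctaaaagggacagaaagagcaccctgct
Slamf7: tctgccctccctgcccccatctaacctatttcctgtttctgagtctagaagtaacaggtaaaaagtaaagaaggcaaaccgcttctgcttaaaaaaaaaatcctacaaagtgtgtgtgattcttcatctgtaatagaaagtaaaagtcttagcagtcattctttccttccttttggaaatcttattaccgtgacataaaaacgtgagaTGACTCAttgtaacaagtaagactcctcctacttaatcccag

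The windows of Sult2b1 and Slamf7 each hold 1 AP-1 match, and that of Sult2b1 also holds 2 cAMP response cores. The Srgn window holds 1 such core and 1 RUNX match, and the Pde2a window 2 RUNX matches. No match overlaps another. Such letters are common: among 32851 upstream windows of this length, 6.75% hold the AP-1 site, 17.8% the cAMP response core, 19.7% the ETS site and 14.0% the RUNX site. Sult2b1 had 927, 1019.9 and 769 normalised reads in WT unstimulated libraries with PGE2, against 492, 417, 427 and 391 in untreated ones, with no overlap. It rose with PGE2 both at rest and during stimulation, by 1.06 ± 0.11 and 0.44 ± 0.10 on the log2 scale (limma adjusted p = 1.61e-09 and 0.000454), and with stimulation by 1.03 ± 0.10 (limma adjusted p = 2.88e-11). Pde2a fell by 0.71 on the log2 scale with stimulation and was higher by 0.51 ± 0.10 with PGE2 during it. Srgn and Slamf7 had the reverse pattern, at 0.98 ± 0.09 and 0.83 ± 0.14 with stimulation and at −0.71 ± 0.09 and −0.61 ± 0.14 with PGE2 during it. PGE2 at rest gave −0.15 ± 0.10, 0.03 ± 0.10 and −0.11 ± 0.15 for these 3, none of which passed the test.

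Most exonic peaks lay far from a start. Of the 2981 peaks (90.5%) whose place in the gene could be worked out, 2887 (96.8%) lay inside the gene, and the middle of the peak stood at a median of 74.4% of the way from its start to its end, with quartiles at 47.7% and 91.8%. Only 139 peaks (4.22%) held the start of their gene and 268 (8.13%) its end, and 1495 (45.4%) lay past the middle of the gene, away from both ends. Exonic peaks were 306 to 4510 bp wide with a median of 996 bp, narrower than promoter peaks at 1406 bp and wider than intron peaks at 914 bp. In untreated unstimulated WT cells their median level was 121 normalised reads per kb, close to introns (107 per kb) and intergenic sequence (99.9 per kb) and well below promoters (350 per kb). Exonic peaks that held a start stood at 308 per kb. A gene usually had a single exonic peak (2308 genes, 83.8%). The exonic peaks with most reads in these cells were at Shisa5, Ing1, Gm13031, Clec11a and Padi2, with 1264 ± 61.2, 1867 ± 11.9, 2499 ± 169.7, 2139.5 ± 122 and 1615 ± 105 normalised reads per kb (SD, n = 4). The widest was at Ucp2, a mitochondrial carrier, and fell with PGE2, to 1127 ± 159 normalised reads in WT unstimulated libraries with PGE2, against 2081 ± 188 in untreated ones (log2 change −0.89 ± 0.11, limma adjusted p = 1.32e-07).

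The libraries were ordered by stimulation first and by PGE2 in WT cells second. Over the 3295 exonic peaks the first principal component held 66.3% of the variance and the second 9.61%. Stimulated untreated WT libraries stood at 21.4 to 27.1 on the first component and unstimulated untreated ones at −29.6 to −25.8, while stimulated WT libraries with PGE2 stood between them, at −0.09 to 1.4. WT libraries with PGE2 stood at 11.8 to 21.2 on the second component, and every other library at −0.14 or below. On the first component the range of KO libraries with PGE2 overlapped with that of untreated KO libraries in both stimulation states. On the second component, unstimulated KO libraries with PGE2 stood at −7.51 to −5.01, against −10.3 to −8.38 in untreated ones, without overlap. Stimulated KO libraries with PGE2 stood there at −4.25 to −1.01, overlapping with untreated ones at −6.23 to −3.57. The third component held 4.19% of the variance. On it KO libraries of replicates 3 and 4 stood at 4.95 to 10.93, and those of replicates 1 and 2 at −2.42 to 0.83. Untreated WT libraries stood there at −10.8 to −4.97 and WT libraries with PGE2 at −0.56 to 3.29. Reads in peaks ran from 14611688 to 20153816 in KO replicates 3 and 4, and from 8444350 to 13740826 in KO replicates 1 and 2. The part of depth was not tested. On the sixth component, which held 1.24% of the variance, KO unstimulated untreated replicate 2 stood apart at 11.53, with the next library at 3.17. Without it the exonic peaks called in the 5 comparisons that use it numbered 0 for PGE2 in unstimulated KO cells, 1716 for stimulation of untreated KO cells, 73 for KO against WT, 244 for the difference of the PGE2 effects at rest and 0 for that of the stimulation effects.

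**Figure D1:**
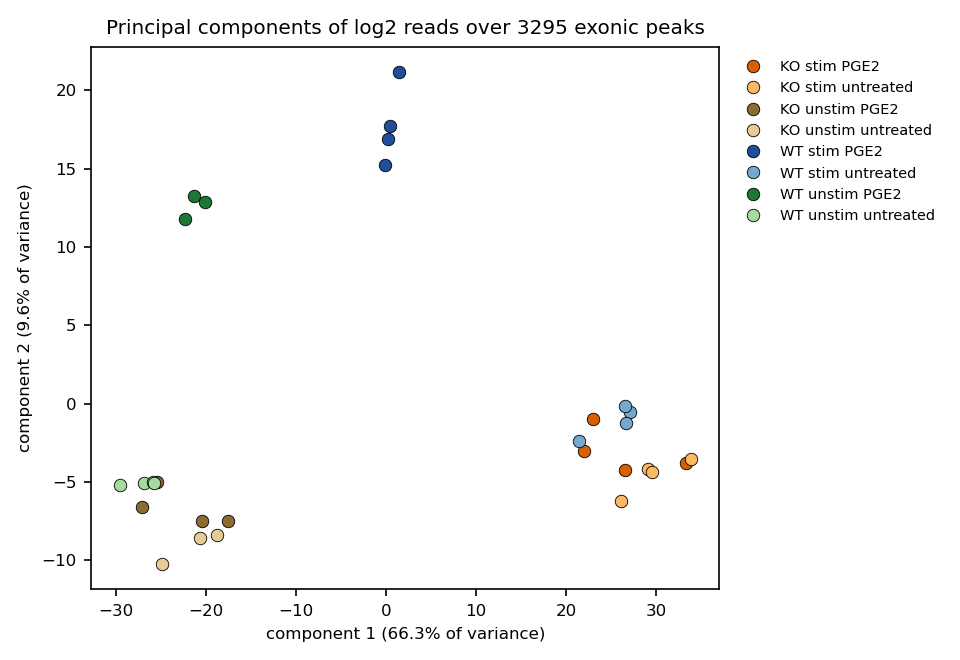
First (x axis) and second (y axis) principal component of log2 normalised reads over 3295 exonic peaks, 1 point per library and 1 colour per group. The WT libraries with PGE2 stand alone at 11.8 to 21.2 on the second component, while KO libraries with PGE2 stand at −7.51 to −1.01.

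The calls below come from limma on log2(normalised reads + 1) over all 38525 peaks that passed a mean of 10 normalised reads, 3295 of them exonic, and called means a p-value under 0.05 after Benjamini-Hochberg adjustment over all of them. Log2 changes are given with their standard error. In bulk ATAC-seq, fewer cells with an open site and less signal per cell cannot be told apart. Gene names are those of the table, which can name a neighbour, and copies of similar sequence in families such as Ccl, Gzm, Serpinb9, Klr and Sfi1 make those assignments uncertain.

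The largest changes with NK1.1 stimulation of untreated WT cells were increases, several of them at genes of chemokines and receptors of activated cells. Of 3295 exonic peaks 1938 were called (58.8%, against 56.3% of all peaks), 891 higher and 1047 lower (27.0% and 31.8%, against 28.9% and 27.4% of all peaks). Those that rose had a median change of 1.03 and 454 of them (51.0%) rose over 2-fold, whereas those that fell had a median of −0.66 and 180 (17.2%) fell over 2-fold. The largest increases were at Xcl1, Ccl1, Scyl2, Tagap, Crtam and Tnfrsf9. Exonic peaks that held a start were called higher in 18.0% of cases, against 27.0% over all exonic peaks.

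Among ligands, Xcl1, a chemokine that attracts cross-presenting dendritic cells, rose at a peak over the end of the gene (chr1:164928927-164932073). It had 3597, 2862, 1979 and 2041 normalised reads in stimulated untreated WT libraries 1 to 4, against 30.6, 51.5, 32.4 and 57.3 in unstimulated ones, a log2 change of 5.90 ± 0.28 (limma adjusted p = 1.27e-19). All stimulated values were far above all unstimulated ones, and replicates 1 and 2 were higher than replicates 3 and 4. Ccl1, a chemokine for CCR8, had 4374, 3044, 2135 and 2069 normalised reads in stimulated untreated WT libraries, against 69.1, 74.8, 107 and 58.5 in unstimulated ones at its gene (chr11:82173321-82177520), a change of 5.18 ± 0.22 (limma adjusted p = 4.56e-21). A further exonic peak that the table gives to Ccl1, 16.4 kb before its start, rose by 3.81 ± 0.38. Ccl4, a chemokine, rose by 3.65 ± 0.17, and Tnf, the cytokine, by 0.75 ± 0.13. The exonic peak of Ifng, the interferon of NK cells, did not pass the test, with 99.2 ± 8.76 normalised reads in stimulated untreated WT libraries, against 127 ± 19.3 in unstimulated ones (log2 change −0.34 ± 0.16, limma adjusted p = 0.0656), though it did with only the groups compared in the fit (limma adjusted p = 0.0456) or without WT unstimulated untreated replicate 1 (limma adjusted p = 0.0415). Over the list of NK cytokines and chemokines, 6 of 11 exonic peaks rose and 2 fell, beside 28.9% and 27.4% of all peaks. Their median change was 0.75, against −0.02 over all peaks tested.

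**Figure D2:**
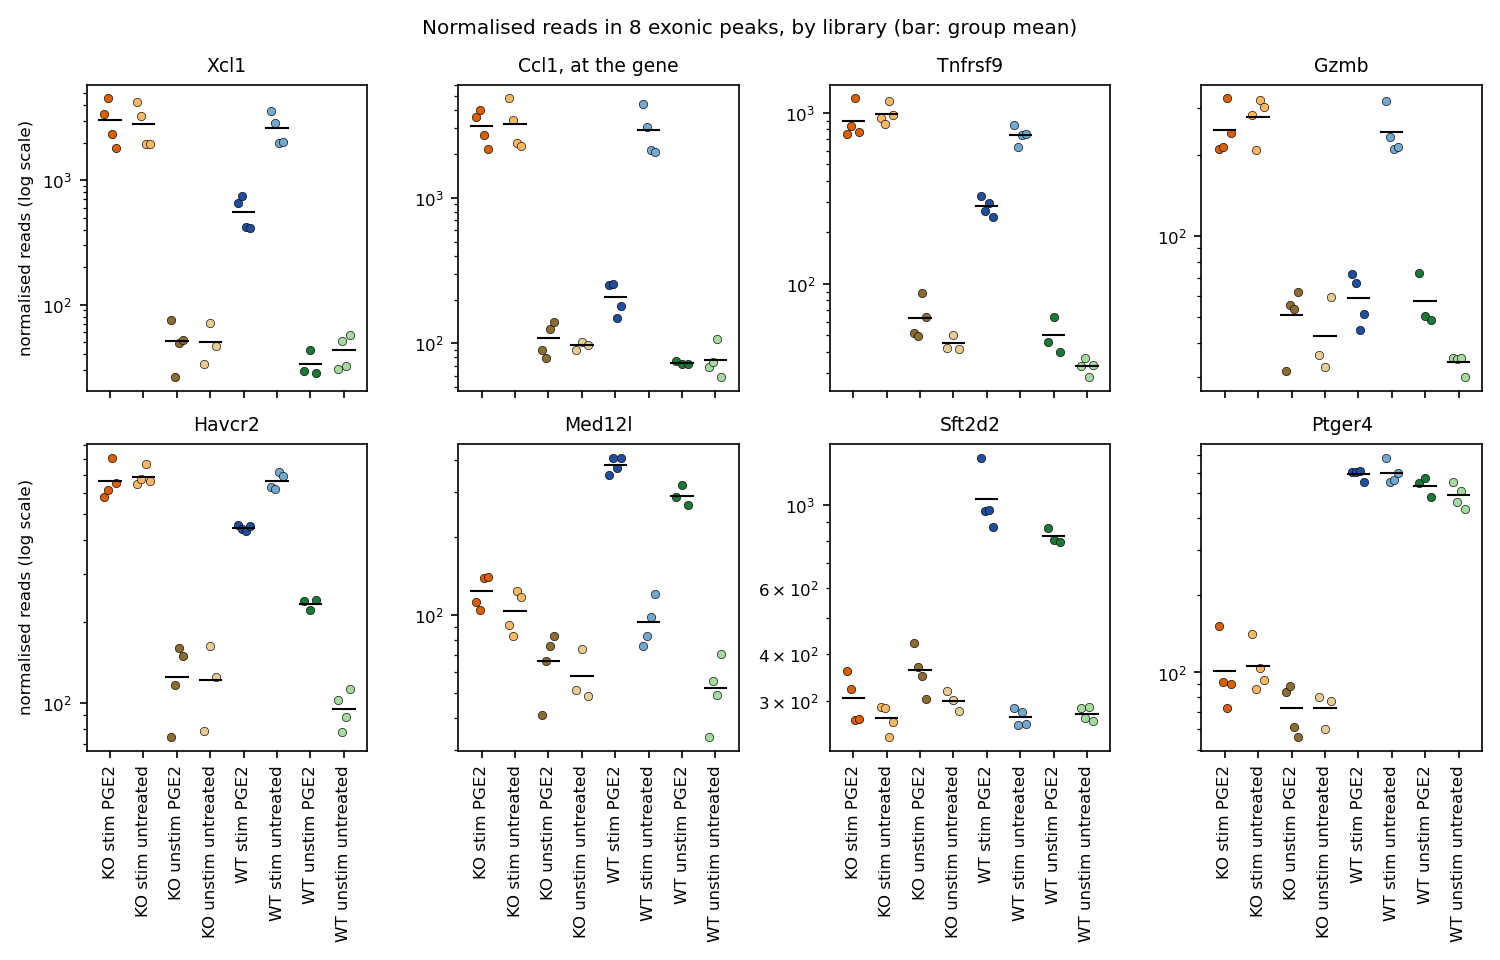
Normalised reads (y axis, log scale) of 8 exonic peaks in each library, by group along the x axis; points are libraries and bars group means. Xcl1, Ccl1, Tnfrsf9 and Gzmb are high in stimulated cells and lower in WT stimulated cells with PGE2, Med12l and Sft2d2 are high in the WT groups with PGE2, and Ptger4 is high in the WT groups.

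Exonic peaks of several receptors rose as well. Tnfrsf9, the costimulatory receptor 4-1BB, had 845, 634, 737 and 747 normalised reads in stimulated untreated WT libraries, against 33.0, 36.9, 28.5 and 33.4 in unstimulated ones, at a peak over the end of the gene (chr4:150944646-150947517), a change of 4.45 ± 0.16 (limma adjusted p = 6.7e-23). The groups did not overlap. Crtam, a receptor of activated NK and T cells, rose by 4.71 ± 0.18. Among inhibitory receptors Havcr2 (TIM-3) rose by 2.80 ± 0.16, Pdcd1 (PD-1) by 0.97 ± 0.11 and Cd96 by 3.59 ± 0.22, while Vsir (VISTA) fell by 1.19. Cd96 started low, at 19.2 normalised reads per kb in unstimulated untreated WT libraries, against 244 in stimulated ones. The inhibitory receptor list, which also takes in adenosine genes and the ligand genes Cd274 and Pdcd1lg2, held 11 exonic peaks. Of these 5 rose and 4 fell (median 0.08). Of 19 exonic peaks of NK receptors and adaptors 7 rose and 5 fell, with Sh2d2a, a signalling adaptor, at 2.96 ± 0.13 and Klrd1 (CD94) at −1.29 ± 0.17. Over all peaks 28.9% were called higher and 27.4% lower, and shares of small lists near these say nothing about the lists.

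Cytotoxic granule genes rose at most of their exonic peaks. Gzmb, granzyme B, had 319, 233, 211 and 215 normalised reads in stimulated untreated WT libraries, against 35.3, 35.0, 35.3 and 29.9 in unstimulated ones, a change of 2.80 ± 0.21 (limma adjusted p = 2.13e-14), and the groups did not overlap. Prf1, perforin, rose by 2.24 ± 0.19, and both exonic peaks of Serpinb9, an inhibitor of granzyme B, by 2.78 ± 0.17 and 2.32 ± 0.15. In all, 6 of the 8 exonic peaks of this list rose and none fell (median 1.80), beside 28.9% and 27.4% of all peaks.

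Most exonic peaks of receptor activation genes rose. Of 24 exonic peaks of receptor activation genes, 16 rose and 3 fell (median 0.54), among them Traf1 by 2.30 ± 0.10, the AP-1 gene Fosb by 1.92 ± 0.12 and the NF-κB inhibitor Nfkbie by 1.69 ± 0.10. Of 25 exonic peaks of IL-2, IL-15 and STAT genes, 13 rose and 5 fell, with Bcl2l11 (the death factor BIM) at 3.14 ± 0.18, Il21r at 2.63 ± 0.16 and Socs1, an inhibitor of Janus kinases, at 1.91 ± 0.11. Another exonic peak of Il21r stood at −0.05 ± 0.13 and did not pass the test. For the cAMP and CREB genes 7 of 21 rose and 8 fell, with Nr4a1, a nuclear receptor induced by activation, at 1.68 ± 0.12 and the adenylyl cyclase Adcy7 at −1.05 ± 0.14. TNF family genes gave 2 of 7 up and 2 down. Migration genes gave 6 of 14 up and 7 down, with Cd47 at 3.11 ± 0.24 and Cxcr5 at 2.61 ± 0.21 on top. The other exonic peak of Cd47 rose by 0.75 ± 0.09. NK transcription factors gave 5 of 19 up and 4 down, and TGF-β and residency genes 5 of 11 up and 4 down. Glycolysis and mTOR genes gave 3 of 12 up and 3 down, and interferon-stimulated genes 2 of 4 up and 1 down. The list of prostanoid and other receptors gave 0 of 4 up and 2 down, Ptgdr2 and Ptger1. Its other peaks were at Ptger4 and at Ptges2, which encodes a prostaglandin E synthase and not a receptor. Over all peaks 28.9% were called higher and 27.4% lower, and several of these small lists lie near those shares, which says nothing about the lists.

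Holding the end of a gene was about as frequent among the exonic peaks that rose as among all of them, at 69 of 891 (7.74%), against 8.13% of all exonic peaks. The share was 7.71% of those that rose over 2-fold, 8.54% over 4-fold and 14.3% over 8-fold (7 of 49). Of only 10 exonic peaks over 16-fold, 6 held the end, and these 10 were wider than most, with a median of 1746 bp against 996 bp over all exonic peaks. The steps were chosen after the values were seen, and the part of width was not tested.

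Of the exonic peaks whose libraries did not overlap between groups and that averaged 50 or more normalised reads in the higher group, Lmntd1 fell most. It had 115, 88.1, 81.6 and 59.0 normalised reads in stimulated untreated WT libraries, against 356, 328, 278 and 348 in unstimulated ones, with no overlap and a change of −1.95 ± 0.16 (limma adjusted p = 2e-13). An exonic peak of Sult2b1 8.4 kb past its start, inside the gene, fell by 1.92, while the one at its start, whose sequence is shown above, rose. Arid4a, a chromatin regulator, fell by 1.81, Rec114, a meiosis gene, by 1.77 and Slc44a5 by 1.68.

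PGE2 given to unstimulated WT cells called more exonic peaks higher than lower, as over all peaks, and left most uncalled. It changed 517 of 3295 (15.7%, against 14.9% of all peaks), 361 higher and 156 lower (11.0% and 4.73%, against 10.9% and 4.03% of all peaks). Over all exonic peaks the median change was −0.02, and 46.9% had a positive change. Those higher had a median change of 0.74 and 101 (28.0%) exceeded 2-fold, whereas only 2 of those lower did. By position, 3.60% of those holding a start were called higher, 10.5% of those between it and the middle of the gene and 12.4% of those past the middle.

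The largest increase was at Med12l (chr3:59296019-59297175), named for a subunit of the Mediator kinase module. It had 287, 318 and 266 normalised reads in WT unstimulated libraries with PGE2, against 33.8, 55.4, 49.1 and 70.5 in untreated ones, a change of 2.50 ± 0.21 (limma adjusted p = 2.42e-11). Every treated library was above every untreated one, which the choice of the largest changes required. Gm8369 had 108, 103 and 112 normalised reads in WT unstimulated libraries with PGE2, against 24.3, 15.6, 19.6 and 26.3 in untreated ones (change 2.30 ± 0.20, limma adjusted p = 7.52e-11), where no overlap was required as well. Spice1, Sbno1, Hc (complement C5), Xpc, a DNA repair factor, and Ubr4, a ubiquitin ligase, rose by 2.26, 2.23, 2.13, 2.12 and 2.06 on the log2 scale. The genes that head this order are not members of the lists of immune genes.

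Exonic peaks of some immune genes rose too. Havcr2 had 238, 221 and 240.2 normalised reads in WT unstimulated libraries with PGE2, against 102, 77.8, 88.4 and 112 in untreated ones, a change of 1.30 ± 0.18 (limma adjusted p = 6.8e-07) with no overlap. Cd96 rose by 1.49 ± 0.24 and Pdcd1 by 0.87 ± 0.12. The Cd96 peak, 536 bp wide, was low in untreated libraries, at 19.2 normalised reads per kb, against 56.1 with PGE2. In all, 4 of 11 exonic peaks of the inhibitory receptor list rose and none fell (median −0.02, against −0.01 over all peaks). Among those that rose was the ligand gene Pdcd1lg2 (0.34 ± 0.11). Tgfbr2, the type II receptor for TGF-β, had 327, 321 and 273 normalised reads in WT unstimulated libraries with PGE2, against 93.4, 115, 153 and 123 in untreated ones (change 1.35 ± 0.15, limma adjusted p = 7.09e-09), without overlap, whereas Tgfbr3, a coreceptor for the same ligand, fell by 0.90. Of the migration genes, Cx3cr1, the receptor for fractalkine, rose by 1.51 ± 0.25 and Gpr183, an oxysterol receptor, by 1.12 ± 0.15, and 4 of 14 exonic peaks of that list rose and none fell (median 0.34). TNF family genes gave 3 of 7 up, granule genes 2 of 8, TGF-β and residency genes 2 of 11 with 1 down, interferon-stimulated genes 2 of 4 and NK receptors and adaptors 3 of 19 with 3 down. None of the 4 exonic peaks of the prostanoid list passed. Over all peaks 10.9% were called higher and 4.03% lower, and shares of such small lists near these say nothing about the lists.

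Among ligands, Il10, an anti-inflammatory cytokine, rose by 1.07 ± 0.14 and Ccl4 fell by 0.70 (limma adjusted p = 0.00528), 2 of 11 exonic peaks of the cytokine list being higher and 1 lower. In signalling genes Stat5a, a factor downstream of IL-2 and IL-15, had 146, 138 and 139 normalised reads in WT unstimulated libraries with PGE2, against 51.8, 28.2, 42.2 and 46.6 in untreated ones at 93.5% of the length of its gene, a change of 1.75 ± 0.25 (limma adjusted p = 1.84e-06). Treated libraries did not overlap with untreated ones. Socs1 rose by 0.83 ± 0.12 and Tyk2, a Janus kinase, fell by 0.53, with 6 of 25 peaks of that list up and 2 down. Tnip1, an NF-κB inhibitor, rose by 0.87 ± 0.12 and 3 of 24 receptor activation peaks were higher. Of the cAMP and CREB genes, 1 of 21 exonic peaks passed the test, Akap13, an anchor of protein kinase A, at 0.27 ± 0.07. In glycolysis and mTOR genes 4 of 12 were higher, led by Rptor, the scaffold of mTORC1, at 0.85 ± 0.12. Other exonic peaks of Rptor stood at 0.41 ± 0.07 and −0.07 ± 0.16, the latter not called. Ikzf3, the transcription factor Aiolos, fell by 0.77 (limma adjusted p = 1.64e-07), with 664 ± 78.5 normalised reads in WT unstimulated libraries with PGE2, against 1129 ± 115 in untreated ones, and was 1 of 19 exonic peaks of NK transcription factors to fall, with 3 up. Clec2d, a ligand of inhibitory NK receptors, fell by 0.83. The counts of these lists stand beside 10.9% of all peaks called higher and 4.03% lower, and shares near these say nothing about the lists.

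Some of these calls rest on single libraries. Gzmb passed with 73.1, 50.3 and 48.7 normalised reads in WT unstimulated libraries with PGE2, against 35.3, 35.0, 35.3 and 29.9 in untreated ones (change 0.72 ± 0.22, limma adjusted p = 0.0214), and missed the threshold without WT unstimulated untreated replicate 4 (limma adjusted p = 0.0584) or WT unstimulated PGE2 replicate 2 (0.17). Klrd1 was lower (−0.55 ± 0.19, limma adjusted p = 0.0393) and missed the threshold when any 1 library of the comparison was left out (limma adjusted p = 0.0531 to 0.189).

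PGE2 during stimulation of WT cells changed 1450 exonic peaks (44.0%, against 40.5% of all peaks), 788 higher and 662 lower (23.9% and 20.1%, against 20.2% and 20.4% of all peaks). Of those lower 173 (26.1%) changed over 2-fold and of those higher 128 (16.2%). This comparison shares its untreated stimulated libraries with the stimulation comparison above, so the values of both are set side by side without a test of their relation.

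Exonic peaks of several chemokine genes and of most granule genes fell. Ccl1 had 254, 254, 149 and 180.4 normalised reads in WT stimulated libraries with PGE2, against 4374, 3044, 2135 and 2069 in untreated ones, a change of −3.76 ± 0.22 (limma adjusted p = 1.01e-15). Xcl1 had 661, 739.6, 419.8 and 410.3 normalised reads in WT stimulated libraries with PGE2, against 3597, 2862, 1979 and 2041 in untreated ones, a change of −2.23 ± 0.28 (limma adjusted p = 4.79e-08). The groups did not overlap for either gene, and both stayed above the unstimulated values. Ccl4 fell by 1.80 on the log2 scale, Crtam by 1.80 and Tnfrsf9 by 1.38. Tnf did not pass the test (−0.28 ± 0.13, limma adjusted p = 0.0838) unless the replicate number was a block (limma adjusted p = 0.0121). Libraries of the same number deviated together in this comparison, at correlations of 0.118 to 0.206. Gzmb had 72.6, 66.9, 44.8 and 51.4 normalised reads in WT stimulated libraries with PGE2, against 319, 233, 211 and 215 in untreated ones (change −2.04 ± 0.21, limma adjusted p = 3.75e-10), without overlap. Prf1 fell by 1.09, both Serpinb9 peaks by 1.15 and 0.85, and Srgn by 0.71. In all, 7 of 8 exonic peaks of granule genes fell and none rose (median −0.90, against −0.01 over all peaks), 5 of 11 of the cytokine list fell and 3 rose, beside 20.4% and 20.2% of all peaks, and 11 of 24 of the receptor activation list fell and 4 rose. Those of that list that fell included Fosb (−1.67), Nfkbie (−1.54) and Traf1 (−1.11). Larger decreases were at Cflar, an inhibitor of caspase 8, at Ifi211, at Rapgef1, an exchange factor for Rap1, at Adam17, a sheddase of TNF, and at the DNA methyltransferase gene Dnmt3a, with −2.38, −2.36, −2.28, −2.25 and −2.24.

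Other exonic peaks were higher with PGE2 during stimulation. Anks6 had 104, 108, 76.4 and 69.2 normalised reads in WT stimulated libraries with PGE2, against 12.1, 12.2, 20.6 and 11.3 in untreated ones, a change of 2.60 ± 0.31 (limma adjusted p = 1.07e-08). Sft2d2, a vesicle transport gene, had 1332, 962, 968 and 873 normalised reads in WT stimulated libraries with PGE2, against 287, 259, 281 and 260.3 in untreated ones (chr1:165183295-165184553, change 1.90 ± 0.11, limma adjusted p = 4.88e-16). Neither overlapped between groups, which the choice of these peaks required. Med12l and Sbno1 rose by 2.03 and 1.92 on the log2 scale. Stat5a rose by 1.40 ± 0.23, Gpr183 by 1.48 ± 0.14, Tgfbr2 by 0.90 ± 0.14, Il10 by 0.77 ± 0.13 and Il2rb, a chain of the IL-2 and IL-15 receptors, by 0.86 ± 0.10. Of the cAMP and CREB genes 9 of 21 exonic peaks were higher and 3 lower (median 0.22), with Akap13 at 0.73 ± 0.07 and Nr4a1 the other way at −1.17 ± 0.12. Glycolysis and mTOR genes gave 5 of 12 up and 1 down, led by Rptor at 1.08 ± 0.11 and the glycolytic enzyme Pgam1 at 0.95 ± 0.15. Migration genes gave 6 of 14 up and 3 down, and IL-2, IL-15 and STAT genes 6 of 25 up and 8 down. TGF-β and residency genes gave 4 of 11 up and 2 down, and NK transcription factors 5 of 19 up and 4 down. NK receptors and adaptors gave 3 of 19 up and 4 down, and the inhibitory receptor list 1 of 11 up and 4 down. TNF family genes gave 2 of 7 up and 1 down, interferon-stimulated genes 1 of 4 up and 1 down, and the prostanoid list 1 of 4 up. Over all peaks 20.2% were called higher and 20.4% lower, and several of these lists lie near those shares. Of 43 exonic peaks of Zfp zinc finger genes 12 were higher, a share near that of all exonic peaks (23.9%), and 5 lower. Of 5 at olfactory and vomeronasal receptor genes, silent in most tissues, 4 were higher, Olfr56 by 1.71 ± 0.18.

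The PGE2 effect differed between both states of WT cells at many exonic peaks. Of the 788 exonic peaks higher with PGE2 during stimulation, 216 (27.4%) were also higher with PGE2 at rest, which is 59.8% of the 361 higher at rest, while 41 of those 361 were lower during stimulation. Of the 662 lower during stimulation 51 (7.70%) were lower at rest, 32.7% of the 156 lower at rest. The difference between both effects was itself called at 896 exonic peaks (27.2%, against 25.3% of all peaks), 451 with the larger value during stimulation and 445 with the smaller (10.6% and 14.7% of all peaks). Ccl1, Tagap and Gzmb had the smaller value during stimulation, with differences of −3.72 ± 0.32, −2.46 ± 0.27 and −2.76 ± 0.30. Tyk2 and Havcr2 differed in the same direction, by −0.84 ± 0.14 and −1.87 ± 0.24, Havcr2 being higher with PGE2 at rest and lower with it during stimulation (−0.57 ± 0.16, limma adjusted p = 0.00467). Tgfbr3 differed the other way (1.00 ± 0.22).

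**Figure D3:**
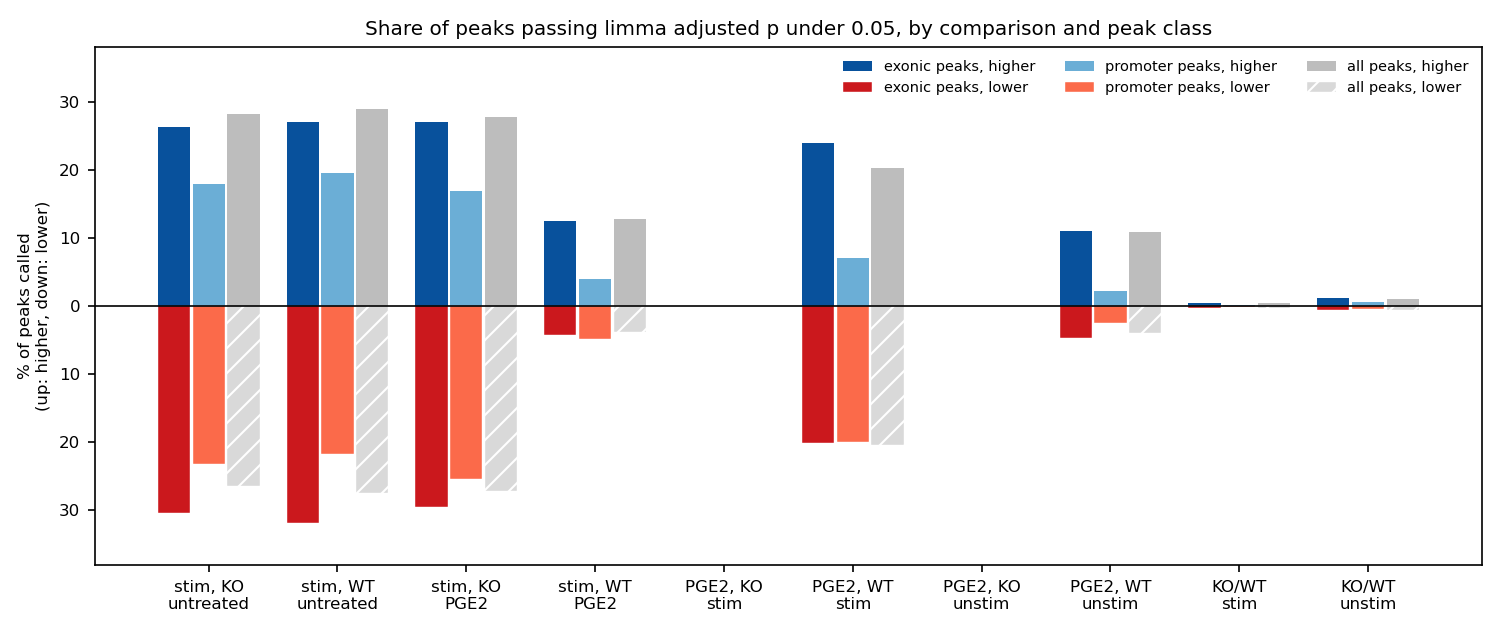
Percentage of exonic, promoter and all peaks (y axis) called higher (upward bars) and lower (downward bars) in 10 comparisons (x axis) of stimulation, PGE2 and genotype. In stimulated WT cells PGE2 called 23.9% of exonic peaks higher and 20.1% lower, and in KO cells PGE2 called no exonic peak.

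In KO cells PGE2 called no exonic peak in either state (limma, against 0.0% of all peaks at rest and 0.0026% during stimulation). At an unadjusted p under 0.05, 120 exonic peaks passed at rest and 152 during stimulation, and edgeR and DESeq2 on recovered reads each called 0, with 102 and 126 below 0.05 before adjustment by either tool. With the replicate number, by which libraries deviated together in both comparisons, as a block, limma also called 0. Before adjustment 135 and 206 were then below 0.05. At the 361 exonic peaks higher with PGE2 at rest in WT cells, the median change in the KO was 0.04, against 0.74 in WT, and at the 788 higher during stimulation it was 0.09, against 0.65. At the 662 lower during stimulation it was −0.07, against −0.69. In stimulated KO cells 72.8% of those 788 and 26.6% of those 662 had a positive change, against 51.0% of all exonic peaks. In unstimulated KO cells 61.8% of the 361 higher and 53.2% of the 156 lower at rest in WT were positive, against 49.3%. These small shifts were not tested. Med12l averaged 66.4 ± 18.2 normalised reads in KO unstimulated libraries with PGE2 and 57.9 ± 13.7 in untreated ones, and Sft2d2 averaged 305 ± 44.9 and 271 ± 22.9 in KO stimulated libraries with and without PGE2.

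The test of the difference itself, the PGE2 effect in KO minus that in WT, was called at 226 exonic peaks at rest (6.86%, against 6.18% of all peaks), 48 with a higher and 178 with a lower value (1.24% and 4.94% of all peaks). It was called at 745 during stimulation (22.6%, against 20.0% of all peaks), 337 higher and 408 lower (9.8% and 10.2% of all peaks). At rest Med12l, Havcr2 and Tgfbr2 differed by −2.32 ± 0.30, −1.26 ± 0.25 and −1.30 ± 0.21. During stimulation Ccl1, Xcl1, Gzmb and Rapgef1 differed by 3.73 ± 0.31, 2.32 ± 0.40, 1.87 ± 0.29 and 2.05 ± 0.25, so the PGE2 effect was less negative in the KO, and Sft2d2 by −1.74 ± 0.15.

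Stimulation changed a similar number of exonic peaks in both genotypes. In untreated KO cells 1864 exonic peaks were called (56.6%, against 54.5% of all peaks), 867 higher and 997 lower, beside 28.1% and 26.4% of all peaks. Of the 867 higher 786 (90.7%) were higher in WT as well, 88.2% of the 891 there, and of the 997 lower 851 (85.4%), 81.3% of the 1047 in WT, with none in the opposite direction. Xcl1 had 4259, 3244, 1946 and 1933 normalised reads in stimulated untreated KO libraries, against 33.2, 70.9 and 46.3 in unstimulated ones, a change of 5.78 ± 0.31 (limma adjusted p = 3.81e-18). As in WT, replicates 1 and 2 were the higher ones. Gzmb rose by 2.71 ± 0.22 and Tnfrsf9 by 4.42 ± 0.17. The stimulation effect in KO minus that in WT was called at 0 exonic peaks by limma (0.00779% of all peaks, 0.0026% higher and 0.00519% lower), with 149 below 0.05 before adjustment, and edgeR and DESeq2 also called 0. Under PGE2 stimulation changed 1863 exonic peaks in the KO (56.5%, against 54.8% of all peaks), 891 higher and 972 lower, beside 27.7% and 27.1% of all peaks. In WT it changed 552 (16.8%, against 16.5% of all peaks), 411 higher and 141 lower, beside 12.7% and 3.8% of all peaks. Of the 411 higher in WT under PGE2, 381 (92.7%) were also higher without it, 42.8% of the 891 there.

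KO and WT cells without PGE2 differed at few exonic peaks, and the counts moved with the fit. In unstimulated cells 60 were called (1.82%, against 1.73% of all peaks). Of these 39 were higher and 21 lower in the KO (1.09% and 0.636% of all peaks). In stimulated cells 26 were called (0.789%, against 0.724%), or 66 with the replicate number as a block. Of the 26, 16 were higher and 10 lower (0.379% and 0.345% of all peaks). Libraries of the same number deviated together there, at correlations of 0.13 to 0.214. The first count was 95 with DESeq2 and 95 with the replicate block, and with only the groups compared in the fit it was 21 higher and 31 lower, so that more were lower than higher. It was 30 and 32 without WT unstimulated untreated replicates 1 and 2, and 16 and 34 without KO unstimulated untreated replicates 3 and 4. The second was 59 with DESeq2, 17 without KO stimulated untreated replicate 3 and 15 without WT stimulated untreated replicate 4. Under PGE2 the counts were 539 at rest (16.4%, against 14.4% of all peaks), 230 higher and 309 lower, beside 5.46% and 8.99% of all peaks. During stimulation they were 1430 (43.4%, against 40.2%), 735 higher and 695 lower, beside 20.5% and 19.7% of all peaks. The exonic peak of Ptger4 (chr15:5241955-5243110) had 80.1, 60.3 and 77.5 normalised reads in untreated unstimulated KO libraries, against 554, 462, 510.5 and 434 in WT ones, a change of −2.74 ± 0.17 (limma adjusted p = 4e-14) with no overlap. Nothing in the sources used here says whether it lies in the deleted part, and Ptger2 had no exonic peak. Of the 60 peaks 9 lay on chromosome 15, which carries Ptger4 (6.52% of 138 exonic peaks there), and 5 on chromosome 14, which carries Ptger2 (4.00% of 125). Chromosome 19, which carries neither gene, held 6 (5.17% of 116). Over all peaks 6.85% were called on chromosome 15, 6.24% on chromosome 14 and 1.17% on chromosome 19. Trio, a guanine nucleotide exchange factor gene 22.6 Mb from Ptger4, had opposite changes at neighbouring exonic peaks. It had 375, 482 and 459.5 normalised reads in KO libraries, against 29.1, 40.8, 53.0 and 25.1 in WT ones at the first (3.58 ± 0.19, limma adjusted p = 4.46e-16). At the second it had 66.5, 63.6 and 71.4 in KO libraries, against 295, 346, 353 and 377 in WT ones (−2.33 ± 0.17, limma adjusted p = 8.65e-13). KO and WT libraries overlapped at neither, which the choice of these peaks required. Dlgap5, a spindle protein 2.41 Mb from Ptger2, was higher by 2.27 ± 0.14 and Ctnnd2, a catenin 25.4 Mb from Ptger4, lower (−1.89 ± 0.28). Which strain's sequence surrounds the targeted alleles is also not stated, and its part in these calls was not tested.

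Exonic peaks often moved apart from the promoter of their own gene. A promoter peak of the same gene was listed for 2167 exonic peaks in 1769 genes, with several exonic peaks of a gene sharing 1 promoter. The median absolute change with stimulation in untreated WT cells was 0.49 on the log2 scale at the exonic peaks and 0.21 at the promoters. Over all tested peaks of each class it was 0.45 at exonic, 0.55 at intron, 0.54 at intergenic and 0.18 at promoter peaks. A larger change than at promoters was thus not particular to exons. The ratio of exonic to promoter reads changed at 1204 pairs (55.6%), 582 higher and 622 lower. In 397 pairs both peaks were called in the same direction and in 227 in opposite directions, while the exonic peak alone was called in 712 and the promoter alone in 361. Across pairs, which are not independent replicates, the changes of both peaks had a Pearson r of 0.26 and a Spearman rho of 0.18.

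Xcl1 changed by 5.90 at the exonic peak and by 1.84 at the promoter, a ratio change of 4.07 ± 0.28 on the log2 scale (limma adjusted p = 5.79e-14). Cd96 and Dglucy had exonic increases of 3.59 and 4.15 beside promoter changes of −0.51 and −0.49. It was the promoter that rose at Il4i1, an amino acid oxidase, and Tnip3, an NF-κB inhibitor, by 2.76 and 1.39, while their exonic peaks stood at −0.23 and −1.52. Ccl1 rose at both, by 5.18 and 5.10, and its ratio did not pass the test.

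**Figure D4:**
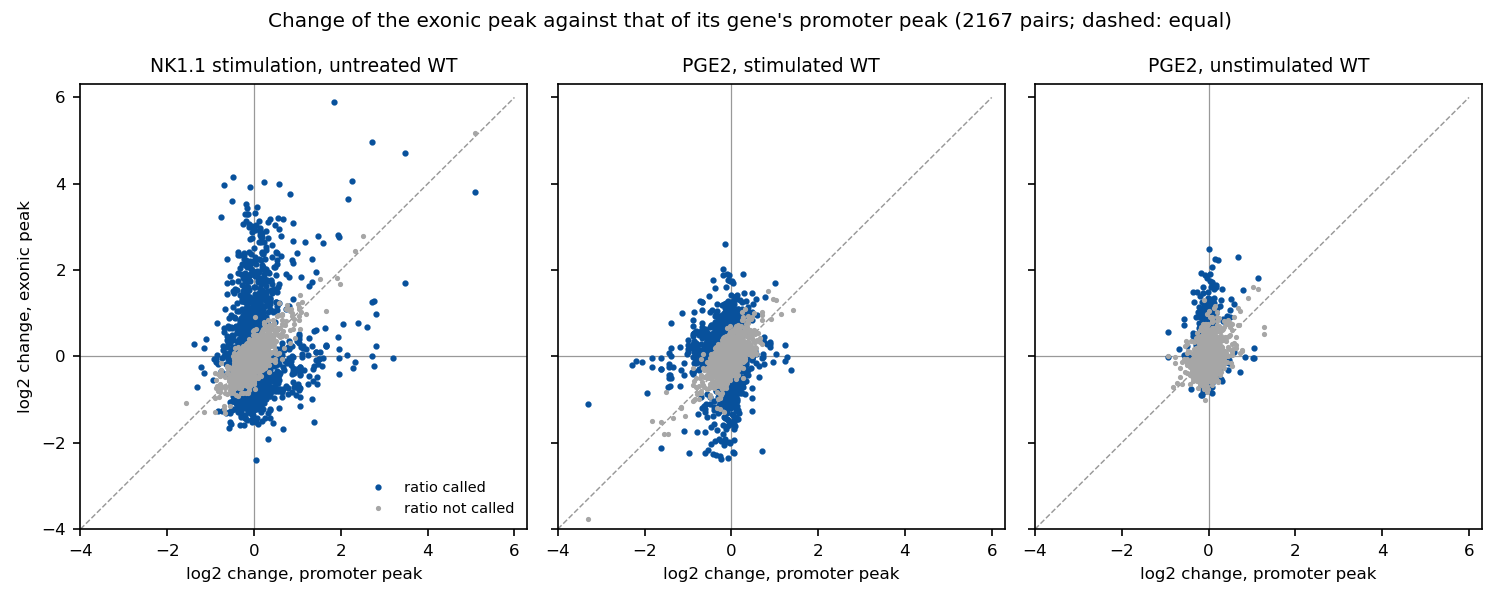
Log2 change of the exonic peak (y axis) against that of its gene's promoter peak (x axis) for 2167 pairs, in 3 comparisons of WT cells; blue points are pairs whose ratio was called, and the dashed line marks equal change. With stimulation many exonic peaks rise where the promoter stays near 0, and a smaller set lies along the x axis, where the promoter alone rises.

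PGE2 gave ratio changes mostly in favour of the exonic peak. At rest 257 ratios were called (11.9%), 207 higher and 50 lower, and during stimulation 908 (41.9%), 610 higher and 298 lower. This was not particular to exons. During stimulation PGE2 called 7.1% of promoter peaks higher and 19.9% lower, against 28.1% and 19.8% of intron peaks. For intergenic peaks the shares were 24.4% and 21.7%. At rest 2.2% of promoter, 16% of intron and 14.5% of intergenic peaks were called higher. Med12l had 2.50 at the exonic peak and 0.01 at the promoter with PGE2 at rest, a ratio change of 2.48 ± 0.23 (limma adjusted p = 1.2e-09). Spice1 and Havcr2 had promoter changes of 0.14 and 0.28, against 2.26 and 1.30 in the exon. Tigit, an inhibitory receptor, had −0.02 in the exon and 0.85 at the promoter. During stimulation Zbtb46, a zinc finger factor, had 0.99 in the exon and −1.15 at the promoter, and Adam17 had −2.25 in the exon and 0.06 at the promoter. Their ratios changed by 2.14 ± 0.18 and −2.31 ± 0.21.

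Exonic peaks of 1 gene also differed among themselves. Rapgef1 held 5, of which the peak at 91.2% of the gene's length had 737, 557, 526 and 467 normalised reads in stimulated untreated WT libraries, against 51.8, 73.9, 64.8 and 56.1 in unstimulated ones (3.18 ± 0.18). The peak just before it, at 87.3%, had 459, 529.9, 384 and 486 normalised reads in stimulated untreated WT libraries, against 1034, 1136, 1142 and 1055 in unstimulated ones (−1.24 ± 0.11), so neighbouring exonic peaks moved in opposite directions, both without overlap. With PGE2 during stimulation they changed by −2.28 ± 0.18 and 0.53 ± 0.11. Igf2r, the mannose 6-phosphate receptor, held 5, of which 3 rose and 2 fell with stimulation, and the one nearest its start, at 62.2% of its length, rose with PGE2 at rest by 1.50 ± 0.23. Tagap, a GTPase-activating protein, held 3, with stimulation changes of 0.02 ± 0.15, 1.26 ± 0.17 and 4.97 ± 0.18 from its start to its end. The first did not pass the test and the last fell by 2.13 with PGE2 during stimulation. Lrrk1, a kinase, had 0.59 ± 0.16 at its exonic peak nearest the start and −1.04 ± 0.11 at that nearest the end. Sfi1 held the most, 8, with changes between −0.62 and 0.37, in a gene whose copies make the assignment uncertain.

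**Figure D5:**
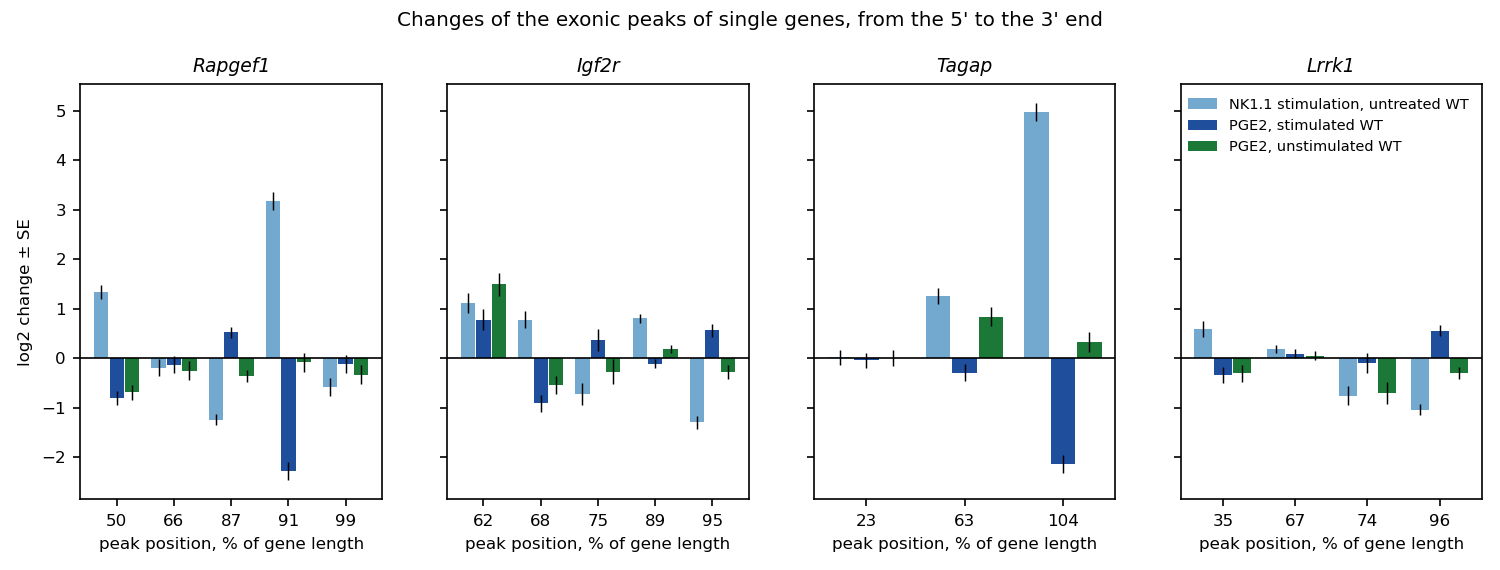
Log2 changes with their standard errors (y axis) of the exonic peaks of Rapgef1, Igf2r, Tagap and Lrrk1, ordered by position in the gene (x axis, percent of gene length, over 100 past the end), for stimulation and for PGE2 in both states of WT cells. In Rapgef1 the exonic peak that rose by 3.18 with stimulation stands beside one that fell by 1.24.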

How the data were processed

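Per the submitters' processing notes, the tools were Trimmomatic 0.39, Bowtie2 2.4.1, MACS2 2.2.7.1 and DESeq2, with the mm10 build. The deposited signal is, per the file headers, the authors' normalised read count for each peak of 1 atlas shared by all libraries. Duplicate handling, the transposase offset and how peaks were merged and assigned to classes are not given in the sources used here. All values were whole multiples of 1 read per library within 0.05, and those reads were recovered for edgeR 4.0.16 and DESeq2 1.42.0 as alternatives.

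Log2(value + 1) of the 38525 peaks with a mean of at least 10 was fitted with limma 3.58.1 in R 4.3.3, with 1 mean per group over 30 libraries and trended variance. Fold changes on this scale understate those of low peaks. Ratios of exonic to promoter peaks used the strongest promoter peak of the gene. The labels give replicate numbers but do not say that they pair libraries. Libraries of the same number deviated together from their group means (every correlation over 0.1) in 5 of 12 comparisons. These were PGE2 in stimulated WT, PGE2 in KO in both states, stimulation of KO under PGE2, and KO against WT in stimulated untreated cells. Correlations between libraries of different numbers were not examined. The scripts were tested on simulated data. Conditioned medium was not analysed here.

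The members, the gene lists and the tests were chosen with earlier results of these data known. Named peaks are the 10 with the largest changes each way in 4 comparisons (no overlap of libraries, and 50 or more reads on average in the higher group), up to 3 per list and comparison, all exonic peaks of 11 genes, those of the 8 genes with most of them, the 5 largest ratios each way, the widest, the 5 with most reads, and the 5 with the smallest p in the other comparisons. The start peaks of Sult2b1, Pde2a, Srgn and Slamf7 fall partly outside it. A peak wider than its exon can also cover intron.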

Additional observations from a re-analysis of the deposited data

Results flagged for a closer look

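Among 38 groups of 4 libraries whose values are given above, 2 held a library far from the others, and chance alone would single out about 1 in 20. Anks6 had 20.61 normalised reads in WT stimulated untreated replicate 3, with the other libraries of that group at 11.28 to 12.2. Gzmb had 29.86 in WT unstimulated untreated replicate 4, with the others at 34.99 to 35.34.

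A difference between effects was itself tested and called at 226 exonic peaks for PGE2 at rest in KO minus WT, at 745 for the same during stimulation, and at 896 for PGE2 during stimulation minus at rest in WT. For KO minus WT at rest the log2 difference was −2.32 at Med12l, −1.26 at Havcr2 and −1.30 at Tgfbr2. For KO minus WT during stimulation it was 3.73 at Ccl1, 2.32 at Xcl1, 2.05 at Rapgef1, 1.87 at Gzmb and −1.74 at Sft2d2. For stimulated minus unstimulated WT it was −3.72 at Ccl1, −2.76 at Gzmb, −2.46 at Tagap, −1.87 at Havcr2, −0.84 at Tyk2 and 1.00 at Tgfbr3.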

How the results depend on the processing

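Other pseudocounts, filters, scalings, tools, samples in the fit, a replicate block and the exonic peaks over 1 kb from their gene's start moved 2 of 19 counts of calls by over 1.5 times. For KO against WT in untreated unstimulated cells the count of 60 became 95 with DESeq2 and 95 with the replicate block, and its share of higher calls, 65.0%, became 40.4% when only the groups compared were fitted. For KO against WT in untreated stimulated cells the 26 became 59 with DESeq2 and 66 with the replicate block. The cause was not tested. With the replicate block the other counts were within 1.5 times, from 608 exonic peaks for PGE2 in unstimulated WT cells and 1555 in stimulated WT cells to 2011 for stimulation of untreated WT cells.

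Leaving out 1 library at a time gave 16 to 73 and 15 to 29 calls for KO against WT in untreated unstimulated and stimulated cells, and 384 to 501 and 1224 to 1421 under PGE2. It gave 368 to 485 for PGE2 in unstimulated WT cells, 1272 to 1381 in stimulated ones, 1820 to 1898 and 1716 to 1836 for stimulation of untreated WT and KO cells, 416 to 511 and 1722 to 1823 for it under PGE2, 166 to 251, 636 to 781 and 749 to 920 for the 3 differences between PGE2 effects, and 1124 to 1197, 182 to 224 and 768 to 855 for the ratios. PGE2 in KO cells and the difference of the stimulation effects stayed at 0.

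For 316 changes at 182 named exonic peaks and 12 ratios the alternatives gave 5598 values, of which 112 lost their call (102 of them when 1 library was left out), 5 gained one and 0 reversed. With TMM and edgeR the median change of all peaks stayed within 0.1 on the log2 scale. The 348 exonic peaks with a mean under 50 normalised reads have the least precise values.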
